A study of Mus musculus with 8 samples.

Results

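The BCL2 family of apoptosis regulators was followed here through 10 genes, Bax, Bak1, Bbc3, Bcl2l11, Pmaip1, Bid, Bad, Bcl2, Bcl2l1 and Mcl1, chosen by symbol from the 16888 genes of an RNA sequencing table of mouse pancreas. All 10 symbols were in the table. The CKO group was 4 pancreas samples whose genotype is given as a knockout of Anxa1 limited to myeloid cells. The WT group was 4 pancreas samples whose genotype is Anxa1 flox/flox, so WT here stands for floxed and not for unmodified alleles. All 8 had received repeated cerulein injections, a hormone analogue that overstimulates acinar cells and causes acute pancreatitis, and no uninjected pancreas was analysed here. No source used here gives the Cre driver, age, sex or injection schedule, or says whether each sample was a separate animal, so p-values measure the spread between samples, which may be technical. Each sample is named by its group and the number in its title, as in CKO1 or WT1.

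BCL2 family proteins decide whether the outer mitochondrial membrane is opened and cytochrome c released. The effectors BAX and BAK form the pore, the survival members BCL2, BCL-XL (the product of Bcl2l1) and MCL1 hold them in check, and the BH3-only proteins, among them PUMA (Bbc3), BIM (Bcl2l11), NOXA (Pmaip1), BID and BAD, report damage or loss of survival signals by binding the survival members or the effectors. In cerulein pancreatitis acinar cells die by both apoptosis and necrosis. Levels are RPKM, reads scaled to gene length and to the total of the library. Log2 changes are CKO minus WT on the log2(RPKM + 1) scale, so they understate the change of genes near or below 1 RPKM, while folds are ratios of mean RPKM.

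In cerulein-injected pancreas, 1 member of the family rose and 2 fell. Bbc3 rose 4.13-fold in CKO, Bcl2l11 fell to 0.434 of its WT mean and Bax fell to 0.679 of its WT mean. Bcl2l1 and Mcl1, the survival members with the most reads, had overlapping groups and did not pass the test. Of the 10 genes, 8 reached 1 RPKM in at least 4 libraries and were tested with limma over all 8513 such genes, where 610 (7.17%) passed an adjusted p of 0.05. Of all tested genes, 121 (1.42%) were higher and 489 (5.74%) lower in CKO. Among the 8 tested members 1 rose, 2 fell and 5 did not pass. The median log2 change was -0.18 over the 8 tested members and -0.12 over all tested genes. The groups did not overlap in 1589 of all tested genes (18.7%), and they did not overlap for Bax, Bbc3 and Bcl2l11.

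Promoters of the 3 members that passed the test are shown, 4 of their 6 windows, because Bbc3 and Bcl2l11 moved in opposite directions and the levels of several factors that can bind such promoters were also measured. RefSeq start sites gave promoter windows, 250 bases before to 50 after each start on GRCm38.p6, for 9 of the 10 members, 15 windows in all. Both strands were searched for short motifs. Capitals mark GCGNGGGCG, the EGR1 motif, and TGTTTAC, the FOXO motif, in the Bbc3 and Bcl2l11 windows, and CACGTG, the E-box, in the Bax window. Each window is written 5′ to 3′ on the strand of its gene.
Bbc3 promoter 1 (chr7:16309333-16309632, plus strand): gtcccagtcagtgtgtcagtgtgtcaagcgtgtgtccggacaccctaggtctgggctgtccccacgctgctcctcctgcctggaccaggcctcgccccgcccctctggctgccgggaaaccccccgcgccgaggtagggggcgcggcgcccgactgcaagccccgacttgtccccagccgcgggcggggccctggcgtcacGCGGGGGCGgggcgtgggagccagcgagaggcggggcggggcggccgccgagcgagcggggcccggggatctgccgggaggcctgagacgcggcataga
Bbc3 promoter 2 (chr7:16310011-16310310, plus strand): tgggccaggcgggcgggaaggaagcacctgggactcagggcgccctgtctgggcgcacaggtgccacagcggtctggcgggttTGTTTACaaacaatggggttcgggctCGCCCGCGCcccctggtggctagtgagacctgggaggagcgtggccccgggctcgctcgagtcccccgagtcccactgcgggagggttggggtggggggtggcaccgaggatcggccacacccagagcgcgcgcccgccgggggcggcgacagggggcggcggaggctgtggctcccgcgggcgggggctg
Bcl2l11 promoter 1 (chr2:128125788-128126087, plus strand): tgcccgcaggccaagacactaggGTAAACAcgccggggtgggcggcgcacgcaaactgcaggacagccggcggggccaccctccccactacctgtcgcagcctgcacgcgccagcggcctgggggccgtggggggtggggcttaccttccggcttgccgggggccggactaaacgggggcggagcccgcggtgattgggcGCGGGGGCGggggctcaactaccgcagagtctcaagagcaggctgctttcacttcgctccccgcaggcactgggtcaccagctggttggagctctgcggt
Bax promoter (chr7:45466849-45467148, minus strand): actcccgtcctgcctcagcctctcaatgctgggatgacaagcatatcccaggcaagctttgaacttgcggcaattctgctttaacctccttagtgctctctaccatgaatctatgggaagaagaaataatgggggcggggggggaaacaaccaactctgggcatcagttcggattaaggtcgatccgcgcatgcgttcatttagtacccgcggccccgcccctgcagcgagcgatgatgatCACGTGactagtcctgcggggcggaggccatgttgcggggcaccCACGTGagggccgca

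An EGR1 motif began at position -49 from the start site in Bbc3 promoter 1 and at -141 in promoter 2, and at -50 in Bcl2l11 promoter 1. The match was on the opposite strand in Bbc3 promoter 2. In Bbc3 promoter 1 and Bcl2l11 promoter 1 it overlapped a GC box (GGGCGG). A FOXO motif began at -167 in Bbc3 promoter 2 and at -227 in Bcl2l11 promoter 1, on the opposite strand in Bcl2l11. Bbc3 promoter 1 held no FOXO motif, and neither motif was in the 2 windows not shown, 1 more of Bbc3 (chr7:16310181-16310480) and 1 more of Bcl2l11 (chr2:128127325-128127624). The Bax window held 2 E-boxes, 1 before and 1 after the start site, and a p53 half-site at -201. The Bbc3 window not shown held an E-box at -64, and no p53 half-site was in any of the 3 Bbc3 windows. The other motifs searched, TGATGNAA (C/EBP-ATF), TGANTCA (AP-1) and TTCNNNGAA (STAT), were in 0 of the 15 windows. Of 32851 RefSeq promoter windows of this length, 5.55% held the EGR1 motif, 3.65% the FOXO motif, 7.15% the E-box, 8.36% a p53 half-site and 35.7% the GC box. The C/EBP-ATF motif was in 3.97% of them, the AP-1 motif in 7.81% and the STAT motif in 8.3%. A match describes these letters and is not evidence of binding, and a window without one says nothing of the factor.

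Library totals were inferred from the RPKM values and came to 30469002 to 34359802 reads. Anxa1 fell to 5.48 ± 1.11 RPKM in CKO, against 9.98 ± 3.33 RPKM in WT (SD, n = 4 each; limma adjusted p = 0.0417), and this call was lost in 11 of 17 other settings. The samples were acinar tissue by their markers: the acinar genes took 48.2% to 56.1% of reads in CKO libraries and 49.3% to 52.7% in WT libraries. WT2 stood apart: 8 B and plasma cell genes summed to 0.206 to 0.551 RPKM in the CKO libraries, 0.225 to 4.72 RPKM in WT1, WT3 and WT4, and 13.9 RPKM in WT2. The 10 adipocyte genes summed to 31.9 to 45.8 RPKM in CKO libraries, 36.1 to 48.6 RPKM in WT1, WT3 and WT4, and 157 RPKM in WT2. The 12 monocyte and macrophage genes summed to 170 to 362 RPKM in CKO and 321 to 611 RPKM in WT, and 2 of the 11 tested genes of that list fell. In whole tissue, fewer cells of a type and less RNA per cell cannot be told apart.

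**Figure D1:**
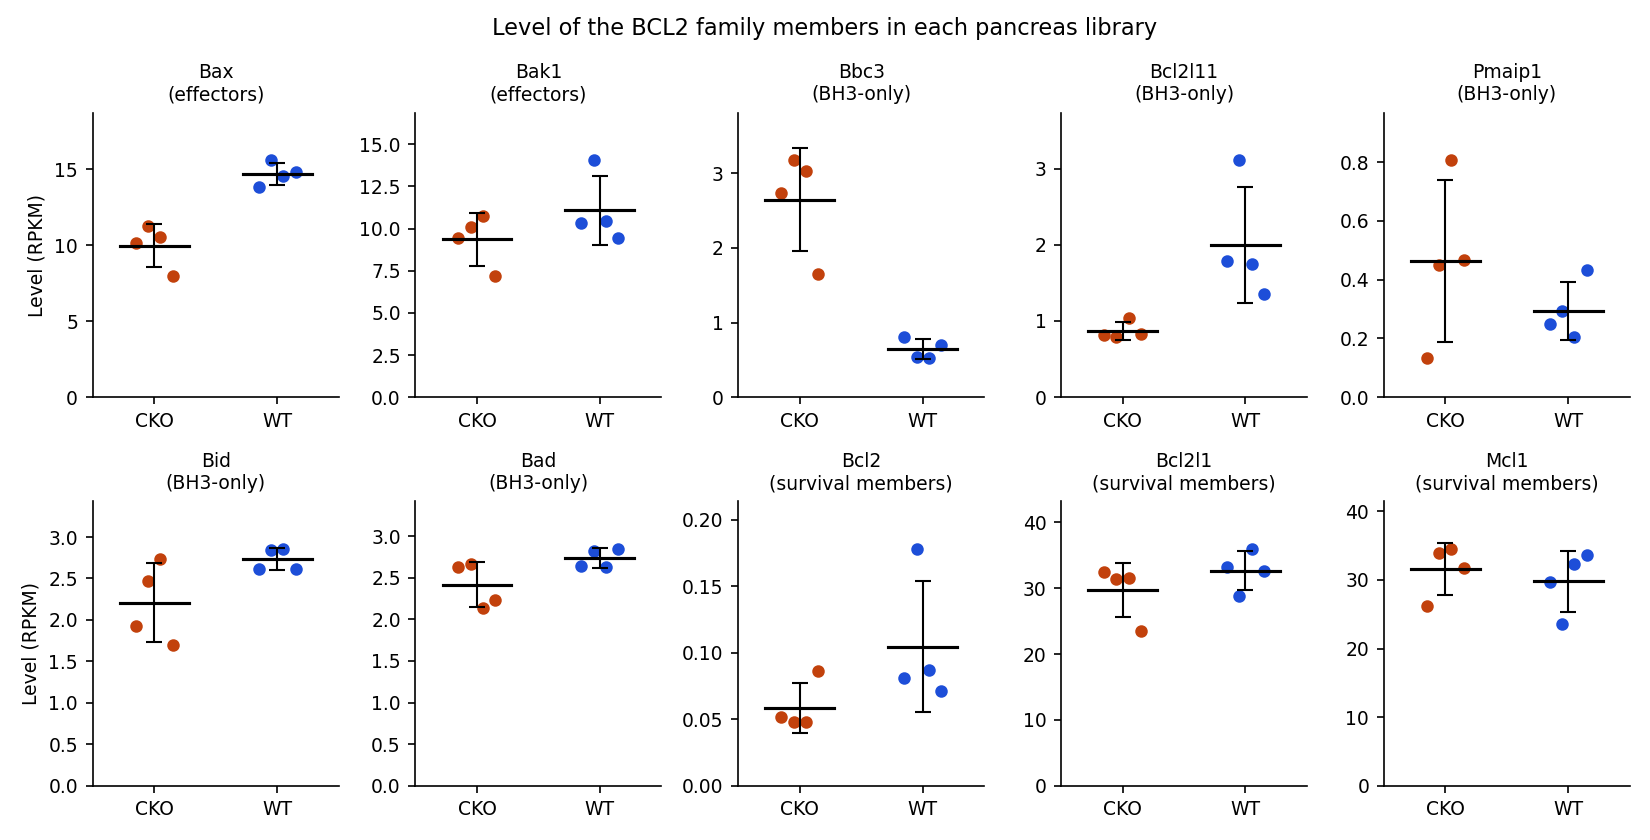
Level of each of the 10 members in RPKM (y axes start at 0 and differ between panels), with 1 point per library, CKO to the left of WT, a line at the mean and bars of 1 SD (n = 4 each). The groups are apart for Bax, Bbc3 and Bcl2l11 and overlap for the other 7 members.

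Among the effectors, Bax passed the test and Bak1 did not. Bax, whose product is cytosolic in healthy cells and inserts into mitochondria on activation, lies on chromosome 7 (45461697 to 45466898, minus strand of mm10). It had 10.2, 11.2, 10.5 and 7.98 RPKM across libraries CKO1 to CKO4, against 13.8, 15.6, 14.5 and 14.8 RPKM across WT1 to WT4. All CKO libraries lay below all WT libraries, with CKO4 lowest. Bax averaged 9.97 ± 1.40 RPKM in CKO and 14.7 ± 0.714 RPKM in WT (SD, n = 4 each), and the log2 change was -0.52 (SE 0.12, 95% interval -0.78 to -0.27, limma adjusted p = 0.0255). The call stood near the threshold: the adjusted p was 0.0609, 0.0674, 0.0562 and 0.0576 without WT1, WT2, WT3 or WT4, 0.0662 in limma-voom on recovered reads and 0.0796 with a length trend removed, with Bax lower in CKO each time. Its recovered length of 928 bases was the shortest of the 10, and removing the length trend moved the log2 change to -0.29.

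Bak1, which sits in the outer mitochondrial membrane of healthy cells, lies on chromosome 17 (27019810 to 27029009, minus strand). It had 9.42, 10.1, 10.8 and 7.16 RPKM across libraries CKO1 to CKO4, against 10.4, 14.0, 10.4 and 9.45 RPKM across WT1 to WT4. The groups overlapped, with CKO4 lowest and WT2 highest. The means were 9.36 ± 1.57 RPKM in CKO and 11.1 ± 2.03 RPKM in WT (SD, n = 4 each), a log2 change of -0.22 (95% interval -0.54 to 0.10, limma adjusted p = 0.362). The Bax to Bak1 ratio was 0.977 to 1.12 in CKO libraries and 1.11 to 1.56 in WT libraries, and these ranges overlapped only through WT2.

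Among the BH3-only members, Bbc3 rose and Bcl2l11 fell, and Pmaip1, Bid and Bad did not pass the test or were not tested. Bbc3 encodes PUMA, a p53 target that binds every survival member, and lies on chromosome 7 (16308393 to 16318205, plus strand). It had 2.74, 3.17, 3.03 and 1.65 RPKM across libraries CKO1 to CKO4, against 0.808, 0.534, 0.530 and 0.694 RPKM across WT1 to WT4. CKO4 was the lowest CKO library and still lay above every WT library. These levels rested on 306, 356, 337 and 170 recovered reads in CKO1 to CKO4 and on 84, 56, 54 and 69 reads in WT1 to WT4. Bbc3 averaged 2.65 ± 0.690 RPKM in CKO and 0.642 ± 0.135 RPKM in WT (SD, n = 4 each). The log2 change was 1.13 (SE 0.15, 95% interval 0.82 to 1.45, limma adjusted p = 0.0011). Bbc3 passed in all 17 other settings, with adjusted p between 0.000286 and 0.00753. Bbc3 reached 1 RPKM in the 4 CKO libraries alone, so it entered the test through the group where it was high. With a filter of 1 CPM (reads scaled to the library total), which it passed in all 8 libraries, its adjusted p was 0.00109.

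Bcl2l11 encodes BIM, a BH3-only protein known for the death of lymphocytes and myeloid cells deprived of growth factors, and lies on chromosome 2 (128126038 to 128162547, plus strand). It had 0.820, 0.787, 1.03 and 0.8293 RPKM across libraries CKO1 to CKO4, against 1.78, 3.11, 1.75 and 1.36 RPKM across WT1 to WT4. Every CKO library lay below every WT library, and WT2 was far above the other 3 WT libraries. Bcl2l11 averaged 0.868 ± 0.113 RPKM in CKO and 2.00 ± 0.763 RPKM in WT (SD, n = 4 each), with a log2 change of -0.65 (SE 0.15, limma adjusted p = 0.0276). It reached 1 RPKM in 1 CKO and 4 WT libraries and so was tested mainly through the WT group. Without WT2 the log2 change was -0.49 (adjusted p = 0.0408). The call was lost with no filter on low values (adjusted p = 0.0648) and without CKO2 (0.0746), CKO4 (0.0749) or WT1 (0.0609). WT2, with the most Bcl2l11, was also the library with the highest summed levels of lymphocyte, adipocyte and macrophage genes, and the part of these cells in the difference was not tested. The 9 T and NK cell genes summed to 0.328 to 0.678 RPKM in CKO libraries, 0.585 to 1.46 RPKM in WT1, WT3 and WT4, and 3.96 RPKM in WT2. The fibroblast and stellate genes summed to at most 146 RPKM in CKO libraries, at most 102 RPKM in WT1, WT3 and WT4, and 171 RPKM in WT2. The endothelial genes summed to at most 34.1 RPKM in CKO libraries, at most 33.9 RPKM in WT1, WT3 and WT4, and 44.0 RPKM in WT2.

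**Figure D2:**
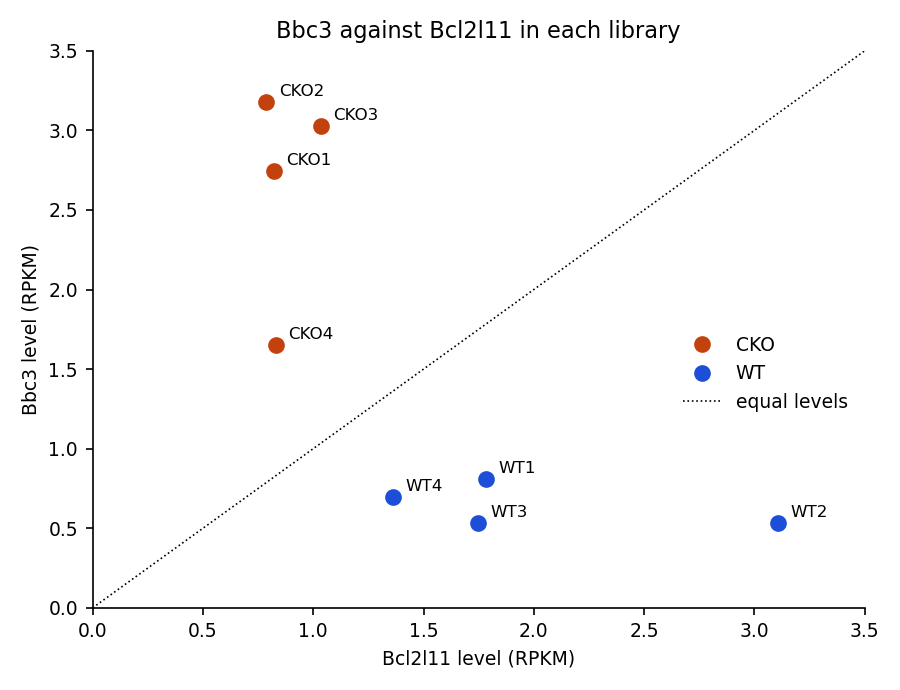
Bbc3 level (y axis, RPKM) against Bcl2l11 level (x axis, RPKM), 1 labelled point per library, with a dotted line at equal levels. The 4 CKO libraries lie above the line and the 4 WT libraries below it, with WT2 farthest to the right.

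The summed level of the 5 BH3-only genes overlapped between the groups. The sum was 8.25, 9.55, 9.74 and 6.87 RPKM across libraries CKO1 to CKO4, against 8.10, 9.60, 7.97 and 7.95 RPKM across WT1 to WT4. Bbc3 made up 24.0% to 33.3% of it in CKO libraries and 5.57% to 9.98% in WT libraries. Bcl2l11 made up 8.25% to 12.1% in CKO libraries and 17.1% to 32.4% in WT libraries. There were 1.99 to 4.03 RPKM of Bbc3 per RPKM of Bcl2l11 in CKO libraries, and 0.172 to 0.510 in WT libraries. These shares restate the 2 changes above and were not tested, and the lengths used for RPKM set their absolute size.

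Pmaip1 encodes NOXA, which binds MCL1, and lies on chromosome 18 (66458533 to 66465565, plus strand). It had 0.132, 0.450, 0.806 and 0.465 RPKM across libraries CKO1 to CKO4, against 0.248, 0.293, 0.205 and 0.433 RPKM across WT1 to WT4. CKO libraries held both the lowest and the highest value, and counts were low, at 12 to 73 recovered reads per library. It stayed below the filter in every library. An exact two-sided permutation test of the means, 0.463 ± 0.275 RPKM in CKO and 0.295 ± 0.0987 RPKM in WT (SD, n = 4 each), gave p = 0.314, unadjusted. With no filter the log2 change was 0.16 (limma adjusted p = 0.526).

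Bid, which is cut by caspase-8 and links death receptors to mitochondria, had 1.93, 2.48, 2.74 and 1.70 RPKM across libraries CKO1 to CKO4, against 2.62, 2.84, 2.86 and 2.61 RPKM across WT1 to WT4. CKO1, CKO2 and CKO4 lay below all WT libraries and CKO3 lay among them. Its means were 2.21 ± 0.478 RPKM in CKO and 2.73 ± 0.135 RPKM in WT (SD, n = 4 each; log2 change -0.23, limma adjusted p = 0.257). Bad, which is held inactive by phosphorylation downstream of growth factors, had 2.63, 2.66, 2.14 and 2.23 RPKM across libraries CKO1 to CKO4, against 2.64, 2.82, 2.63 and 2.85 RPKM across WT1 to WT4. Its groups overlapped narrowly, with means of 2.41 ± 0.270 RPKM in CKO and 2.74 ± 0.115 RPKM in WT (SD, n = 4 each; log2 change -0.13, 95% interval -0.36 to 0.10, limma adjusted p = 0.444), and its sign turned, to 0.062, with the length trend removed.

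The survival members gave no call. Bcl2l1 encodes BCL-XL and lies on chromosome 2 (152780668 to 152831728, minus strand). It had 32.4, 31.4, 31.5 and 23.6 RPKM across libraries CKO1 to CKO4, against 33.2, 28.8, 36.0 and 32.6 RPKM across WT1 to WT4. CKO4 stood below the other 7 libraries, and the rest overlapped. The means were 29.7 ± 4.12 RPKM in CKO and 32.6 ± 2.96 RPKM in WT (SD, n = 4 each; log2 change -0.14, 95% interval -0.41 to 0.13, limma adjusted p = 0.496). Under limma-voom its log2 change was 0.002.

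Mcl1, whose protein is short-lived and whose mRNA must be renewed to keep it, lies on chromosome 3 (95658788 to 95663176, plus strand). It had 26.2, 34.0, 34.5 and 31.7 RPKM across libraries CKO1 to CKO4, against 29.7, 23.5, 32.3 and 33.6 RPKM across WT1 to WT4. The groups overlapped over nearly their whole range. The means were 31.6 ± 3.79 RPKM in CKO and 29.8 ± 4.47 RPKM in WT (SD, n = 4 each; log2 change 0.09, 95% interval -0.20 to 0.38, limma adjusted p = 0.706), and the sign turned without WT2, to -0.017.

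Bcl2 itself had the lowest level of the 10 members. It had 0.0517, 0.0475, 0.0479 and 0.0862 RPKM across libraries CKO1 to CKO4, against 0.0812, 0.178, 0.0872 and 0.0715 RPKM across WT1 to WT4, on 12 to 42 recovered reads per library. The highest value was again in WT2. An exact two-sided permutation test of the group means, 0.0583 ± 0.0187 RPKM in CKO and 0.104 ± 0.0494 RPKM in WT (SD, n = 4 each), gave p = 0.0857, unadjusted. For both genes below the filter the smallest p this design allows is 0.0286.

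**Figure D3:**
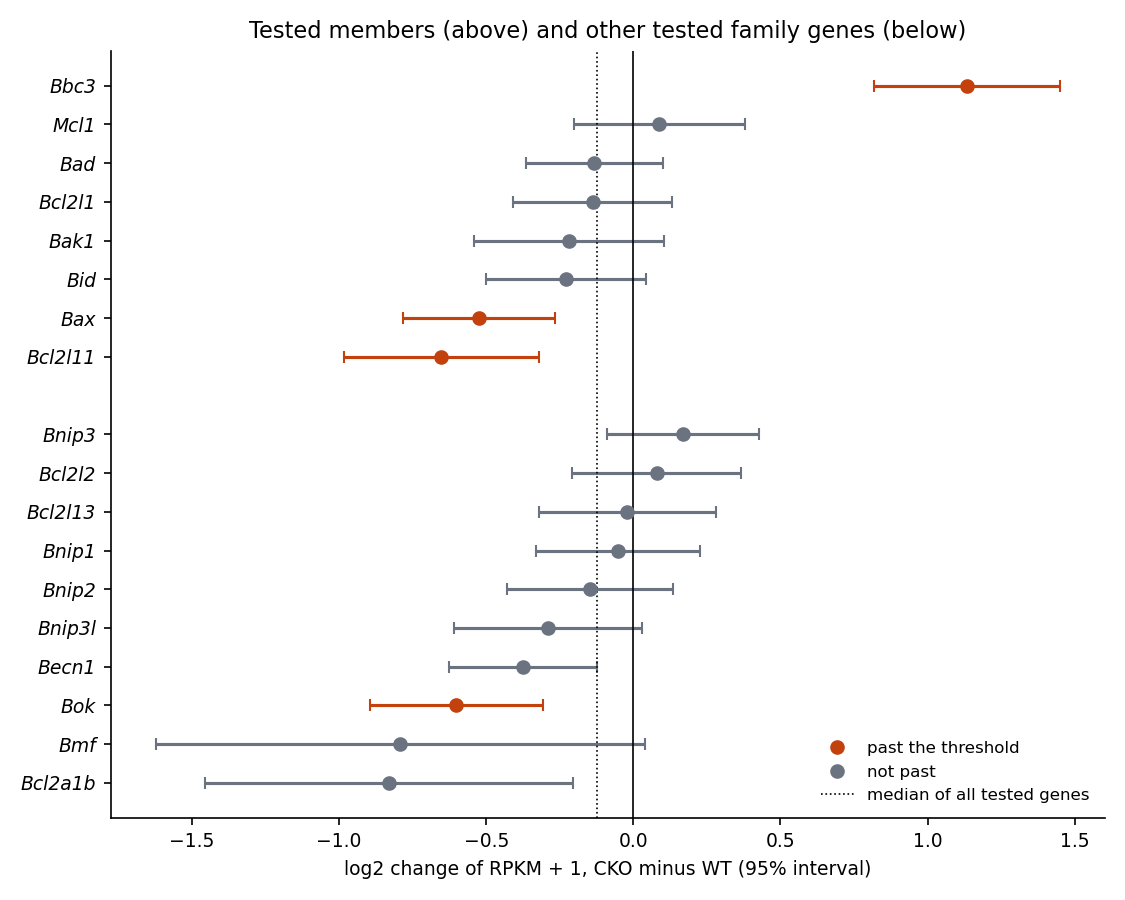
Log2 change of RPKM + 1, CKO minus WT (x axis), with 95% intervals from limma, for the 8 tested members above and 10 other tested family genes below, and a dotted line at the median of all tested genes, -0.12. Bbc3 stands alone to the right at 1.13, and Bax, Bcl2l11 and Bok are the genes past the threshold to the left.

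By level, over all 8 libraries, Bcl2l1 averaged 31.2 RPKM, Mcl1 30.7, Bax 12.3 and Bak1 10.2, followed by Bad at 2.58, Bid at 2.47, Bbc3 at 1.65, Bcl2l11 at 1.43, Pmaip1 at 0.379 and Bcl2 at 0.0814. Neighbours within the pairs Bcl2l1 and Mcl1, Bax and Bak1, and Bad and Bid overlapped over the libraries. Bbc3 and Bcl2l11 held different places in the 2 groups, with Bbc3 at 2.65 RPKM above Bad and Bid in CKO but at 0.642 RPKM below both in WT. The order depended on the gene length: the value implied by the RPKM of Mcl1 was 8725 bases, against 3418 bases of GENCODE exons. The implied value exceeded the whole span of Mcl1 given above, so its recovered reads and its place in the order are uncertain. With the GENCODE length Mcl1 averaged 78.4 RPKM and Bcl2l1 37.5 RPKM. With GENCODE lengths Bak1 (8.50 RPKM) came before Bax (7.26 RPKM). Bbc3 (2.53 RPKM) then came before Bid (1.67 RPKM) and Bad (1.53 RPKM). For Bbc3 the implied length was 3263 bases, against 2124 bases of GENCODE exons. The length does not enter the ratio of a gene's level between the groups. It does enter the filter at 1 RPKM and the log2(RPKM + 1) values that were tested.

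Summed by role, the effectors had 19.6, 21.3, 21.3 and 15.1 RPKM across libraries CKO1 to CKO4, against 24.2, 29.6, 24.97 and 24.2 RPKM across WT1 to WT4. The survival members summed to 55.3 to 66.1 RPKM in CKO and 52.5 to 68.4 RPKM in WT. The Bax to Bcl2l1 ratio was 0.313, 0.357, 0.334 and 0.339 in CKO1 to CKO4, and 0.417, 0.541, 0.404 and 0.454 in WT1 to WT4. This ratio did not overlap between the groups, and CKO4, low for both genes, was not low for the ratio. Bax alone did not overlap either, so the ratio restates its change, whose call stood near the threshold. The ratio itself was not tested. CKO4 was the lowest CKO library for 5 of the 10 members, Bax, Bak1, Bbc3, Bid and Bcl2l1. The same count was not made over all tested genes, whose median log2 change was -0.12 with CKO4 and -0.09 without it. The acinar share of reads in CKO4, 56.0%, was near the top of all libraries. CKO1, at 56.1%, was the lowest CKO library for 2 members, and a part of the acinar share in these levels was not tested.

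The genes most like each tested member over the 8 libraries were found by the Pearson correlation of log2(RPKM + 1). The values are a description over 8 points that include the group difference. They are the highest out of the 8513 tested genes, predicted genes left out, and a search of that size gives high r by selection. Bax was most like Xpo1 (r = 0.998, and 0.996 for deviations from the group means), Spast and Ppp4c. Bbc3 was most like Klf11 (r = 0.989, and 0.898 for deviations), Lrig1 and Gc. Bcl2l11 was most like Mrpl53 (r = 0.99, and 0.969 for deviations), Gusb and Kctd12. Bak1 was most like Ptgr2 (r = 0.982), Zc3h14 and Slc25a45, and Bid most like Pea15a (r = 0.99), Tpi1 and Limd2. Bad was most like Terf2ip (r = 0.938), Ngrn and Ngdn. Bcl2l1 was most like Ciao2b (r = 0.961), Rnf25 and Gmps, and Mcl1 most like Rprm (r = 0.989), Cdr2 and Otud1. Between members, Bbc3 and Bcl2l11 had r = -0.81 over the 8 libraries and -0.13 for deviations from the group means. Bax and Bid had r = 0.84 over the 8 libraries and 0.79 for deviations.

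Outside the 10 members, the other BCL2 family and BH3-like genes had 18 entries, of which 10 were tested, 0 rose and 1 fell. Their median log2 change was -0.22, against -0.12 over all tested genes, of which 1.42% rose and 5.74% fell. The gene that fell was Bok, a BAX-like protein of the endoplasmic reticulum, at 6.68 ± 1.21 RPKM in CKO and 10.6 ± 0.950 RPKM in WT (SD, n = 4 each; limma adjusted p = 0.0251), and this call was lost with no filter (adjusted p = 0.0509) and without CKO2, WT1, WT2 or WT4 (up to 0.0706). Becn1, the autophagy protein with a BH3 domain, had 14.8 ± 1.99 RPKM in CKO and 19.3 ± 0.995 RPKM in WT (adjusted p = 0.0687, and 0.0353 with totals without acinar genes and 0.0442 without CKO3). Bcl2a1b, a survival gene of leukocytes, had 0.498, 0.533, 1.04 and 2.98 RPKM across libraries CKO1 to CKO4, against 2.26, 3.42, 1.93 and 3.39 RPKM across WT1 to WT4 (adjusted p = 0.0924, and 0.0101 without CKO4). The Bcl2a1 copies are nearly identical, so reads may be divided among them uncertainly. Bmf, a BH3-only gene, had 1.37, 3.46, 4.45 and 0.687 RPKM across libraries CKO1 to CKO4, against 4.74, 6.98, 4.21 and 2.67 RPKM across WT1 to WT4, with overlapping groups (adjusted p = 0.203). Bcl2l2, the survival member BCL-W, had 7.71 ± 1.37 RPKM in CKO and 7.18 ± 0.680 RPKM in WT (adjusted p = 0.73).

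The 22 genes of the machinery downstream of the mitochondrial pore had 17 tested, 0 that rose and 1 that fell. Their median log2 change was -0.22, against -0.12 over all tested genes, of which 1.42% rose and 5.74% fell. Casp6, an executioner caspase, had 2.12 ± 0.247 RPKM in CKO and 3.38 ± 0.335 RPKM in WT (SD, n = 4 each; limma adjusted p = 0.0266). That call was lost under limma-voom (0.0906), median centring (0.0616) and removal of the length trend (0.0653), and without CKO2, CKO4, WT1, WT2 or WT4 (up to 0.0796). Diablo, which frees caspases from their inhibitors, had 4.68 ± 0.242 RPKM in CKO and 5.95 ± 0.346 RPKM in WT (adjusted p = 0.102). The membrane channel gene Vdac2 had 30.1 ± 1.53 RPKM in CKO and 36.1 ± 1.54 RPKM in WT (adjusted p = 0.11), and Mtch2, the mitochondrial receptor of BID, had 7.29 ± 0.684 RPKM in CKO and 9.41 ± 0.725 RPKM in WT (adjusted p = 0.0862). Casp9, Apaf1 and Cycs, named outside the rule, had adjusted p of 0.199, 0.339 and 0.476.

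The 24 transcription factors known to act on BH3-only or BCL2 genes had 19 tested, 4 that rose and 0 that fell, with a median log2 change of 0.17 against -0.12 over all tested genes. Under median centring and limma-voom 8 of them rose, and with the length trend removed, with totals without acinar genes or without CKO1 7 rose. Leaving out any other library left 3 or 4. Egr1, an early response factor, had 40.3, 40.9, 42.7 and 46.0 RPKM across libraries CKO1 to CKO4, against 8.84, 9.57, 8.30 and 8.38 RPKM across WT1 to WT4, the CKO libraries lying far above the WT libraries (limma adjusted p = 3.09e-07). Ddit3, which encodes CHOP, a stress factor that acts on Bbc3 and Bcl2l11, had 2.57, 2.68, 2.48 and 2.08 RPKM across libraries CKO1 to CKO4, against 1.03, 0.935, 1.18 and 0.877 RPKM across WT1 to WT4. Its groups did not overlap, and CKO4 was the lowest CKO library (adjusted p = 0.00158). The other factors that rose, Egr1, Myc and Atf3, instead had their highest CKO level in CKO4. Myc, a growth factor-induced regulator that can also sensitise cells to apoptosis, had 19.8 ± 4.16 RPKM in CKO and 9.54 ± 1.87 RPKM in WT (SD, n = 4 each; adjusted p = 0.00808). Atf3, a stress-induced factor, had 92.2 ± 6.68 RPKM in CKO and 47.7 ± 15.1 RPKM in WT (adjusted p = 0.0233), a call lost with no filter (0.0577) and without CKO2 or CKO4 (up to 0.0587).

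The FOXO motif was in Bbc3 promoter 2 and Bcl2l11 promoter 1. Of the FOXO genes, Foxo1 and Foxo3, named outside the rule, did not pass the test, and others are not given here. Foxo1 had 2.50 ± 0.937 RPKM in CKO and 2.55 ± 0.395 RPKM in WT (SD, n = 4 each, limma adjusted p = 0.875). Foxo3 had 5.18 ± 1.14 RPKM in CKO and 5.64 ± 1.01 RPKM in WT (SD, n = 4 each; limma adjusted p = 0.682). RNA levels say nothing of how much of these factors was active.

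**Figure D4:**
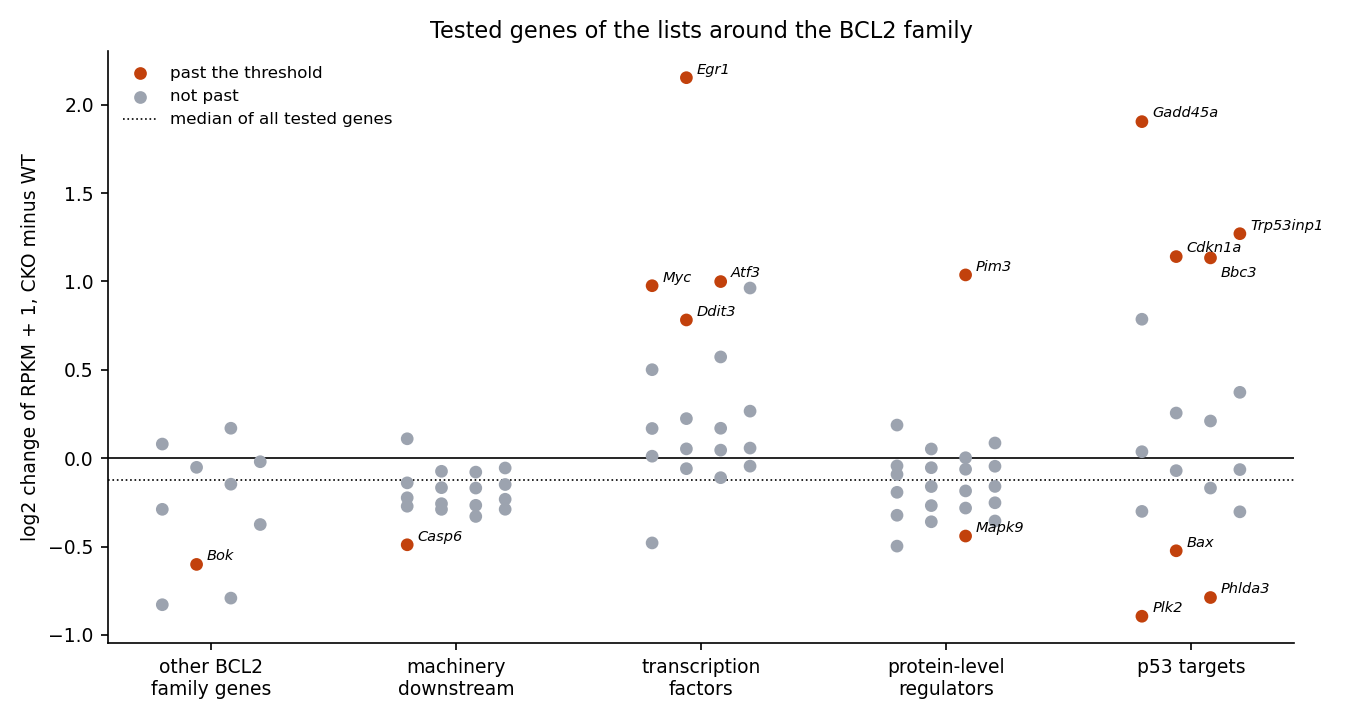
Log2 change of RPKM + 1, CKO minus WT (y axis), of each tested gene in 5 lists around the BCL2 family (x axis; horizontal spread within a list only separates points), with genes past the threshold named and a dotted line at the median of all tested genes, -0.12. Egr1 and Gadd45a lie highest, and the p53 targets have genes past the threshold on both sides, Bbc3 above and Bax below.

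Of 21 p53 target genes 17 were tested, 4 rose and 3 fell. Their median log2 change was 0.04, against -0.12 over all tested genes. Leaving out 1 library at a time left 3 to 5 that rose and 0 to 3 that fell: 0 fell without WT4, and 1 fell without WT1, WT2 or WT3. With no filter, under limma-voom or with the length trend removed 1 fell. The list holds Bbc3, Bax, Pmaip1 and Apaf1. Gadd45a, a growth arrest gene, had 15.3, 13.3, 16.2 and 12.6 RPKM across libraries CKO1 to CKO4, against 3.34, 3.99, 3.48 and 1.85 RPKM across WT1 to WT4 (limma adjusted p = 4.27e-05). Cdkn1a, the cell cycle inhibitor p21, had 172 ± 34.3 RPKM in CKO and 78.9 ± 22.4 RPKM in WT (SD, n = 4 each; adjusted p = 0.0152). Trp53inp1, a stress protein of the acutely inflamed pancreas, had 58.1 ± 7.44 RPKM in CKO and 25.1 ± 10.6 RPKM in WT (adjusted p = 0.0194, and 0.0536 without WT4). Those that fell were Bax, the kinase gene Plk2 at 4.61 ± 0.872 RPKM in CKO and 9.60 ± 2.68 RPKM in WT (adjusted p = 0.0186, and 0.0536 without WT4 and 0.0527 with no filter), and Phlda3 at 4.78 ± 1.67 RPKM in CKO and 8.74 ± 1.69 RPKM in WT (adjusted p = 0.0475, lost in 13 of 17 other settings, up to 0.12). Trp53 had 8.93 ± 1.70 RPKM in CKO and 8.47 ± 0.971 RPKM in WT (adjusted p = 0.825), and Mdm2, its target and inhibitor, had 1.60 ± 0.259 RPKM in CKO and 1.25 ± 0.186 RPKM in WT (adjusted p = 0.254).

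Of 27 genes whose products modify or anchor BCL2 family proteins, 26 were in the table, 22 were tested, 1 rose and 1 fell. Their median log2 change was -0.16, against -0.12 over all tested genes, of which 1.42% rose and 5.74% fell. Pim3, a kinase that phosphorylates BAD, had 14.1, 18.5, 19.0 and 23.0 RPKM across libraries CKO1 to CKO4, against 7.30, 6.50, 10.3 and 10.4 RPKM across WT1 to WT4, without overlap (limma adjusted p = 0.00642). Mapk9, the kinase JNK2, had 3.57 ± 0.395 RPKM in CKO and 5.19 ± 0.223 RPKM in WT (SD, n = 4 each; adjusted p = 0.0362). The Mapk9 call was lost under limma-voom (0.0528) and median centring (0.0628), and without CKO2, CKO4 or any of the 4 WT libraries (up to 0.095). Dynll2, which anchors BMF to the actin motor, had 3.02 ± 0.448 RPKM in CKO and 4.71 ± 1.09 RPKM in WT (adjusted p = 0.0587). Ywhab, a 14-3-3 protein that holds phosphorylated BAD in the cytosol, had 18.8 ± 2.06 RPKM in CKO and 23.7 ± 1.11 RPKM in WT (adjusted p = 0.0834).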

How the data were processed

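RNA from 8 pancreas samples was sequenced on an Illumina instrument. The values were deposited by the authors as RPKM, without a unit in the header, and the unit was read from the numbers: of 16068 genes above 0 in at least 2 libraries, 99.88% gave whole reads within 0.05, including all 10 members. The length of each gene was searched to give whole reads, so for genes above 0 in few libraries such a fit says little. The build was mm10, per the submitters' processing notes; no source used here names the aligner, counter, annotation, filters or library strand, so Bax, Bak1, Bid, Bad and Bcl2, which overlap other genes, may share reads with them. The design allowed for counts or a normalized unit and the table held RPKM, so limma 3.58.1 (R 4.3.3) was run on log2(RPKM + 1), with trend and robust variances and group as the only term, on the 8513 genes that reached 1 RPKM in 4 or more of 8 libraries. P-values were adjusted by Benjamini-Hochberg over these genes, and the threshold was 0.05. Genes named from each list were those past the threshold and, where these were under 4, further genes by unadjusted p, plus the 3 most correlated genes per member. Others named were chosen after their values were seen. Members and lists were chosen with earlier results of these data known. The fit was tested on simulated data. Other settings were a pseudocount of 0.1, other filters, limma-voom, other scalings, a replicate block and leaving out each library. Tables were made in Python 3.11.15 with pandas 2.3.3, NumPy 2.4.6 and SciPy 1.17.1, and plots with Matplotlib 3.10.9. Positions are from GENCODE M21 and promoters from RefSeq. A last unnamed column (1 column) was not used. Library totals and gene lengths were inferred from the RPKM values. Each total was the value that most genes agreed on, multiplied by 2 for CKO2, WT2 and WT4. Recovered reads, the CPM filter, limma-voom and the counting CV rest on these inferred values. The totals came to 30469002 to 34359802 reads, and 3 reads on a gene of 1 kb came to at most 0.0985 RPKM.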

Additional observations from a re-analysis of the deposited data

Results flagged for a closer look

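In 6 of 40 sets of 4 libraries, 1 library lay far from the other 3 for its group's range. Chance gives about 1 in 20 for independent, normal values. These sets share the same 8 libraries and genes that vary together, so the 6 cannot be read against that rate. Bcl2l11 at 1.03 RPKM in CKO3 was above the other CKO libraries (0.787 to 0.8293 RPKM). Bcl2 at 0.0862 RPKM in CKO4 was above the other CKO libraries, and Bcl2 at 0.178 RPKM in WT2 above the other WT libraries, with 20 and 42 reads. Bcl2l1 at 23.6 RPKM in CKO4 was below the other CKO libraries (31.4 to 32.4 RPKM). Bcl2l2 at 8.20 RPKM in WT3 was above the other WT libraries (6.76 to 6.92 RPKM), and Bcl2l13 at 2.56 RPKM in CKO1 below the other CKO libraries (3.71 to 3.74 RPKM).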

How the results depend on the processing

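Bbc3 kept its direction and its call in all 17 other settings, with a log2 change of 2.18 under limma-voom. The Bax change weakened to -0.42 under limma-voom and -0.29 with the length trend removed, and that of Bcl2l11 was -0.65 with no filter, and none of the 3 passed the threshold (adjusted p of 0.0662, 0.0796 and 0.0648); the cause was not tested. The log2 change turned to 0.062 for Bad with the length trend removed and to 0.002 for Bcl2l1 under limma-voom. Leaving out 1 library at a time gave log2 changes of -0.58 to -0.43 for Bax, -0.76 to -0.49 for Bcl2l11, 1.06 to 1.28 for Bbc3, -0.017 to 0.17 for Mcl1 (negative without WT2) and -0.004 to 0.15 for Bcl2l2 (negative without CKO3). It left 1 to 3 members past the threshold and 223 to 705 genes in all, the fewest without WT1, for which Bbc3 alone of the members passed. Scaling moved the centre: the median log2 change of all genes was -0.12 as reported, -0.02 after median centring and -0.01 under limma-voom, and the genes past the threshold were 121 higher and 489 lower as reported, 305 and 267 after median centring, 356 and 238 under limma-voom, and 353 and 242 with the length trend removed. After median centring Bax was at -0.42 (adjusted p = 0.0342), Bcl2l11 at -0.55 (0.0373) and Bbc3 at 1.24 (0.000529). Same-numbered libraries deviated together no more than others (r between -0.32 and 0.14, against -0.28 to 0.22 for different numbers). So few pairs cannot exclude a pairing, and no source used here says whether the numbers pair samples. With the replicate block 548 genes passed, and Bbc3 (0.00471), Bax (0.0364) and Bcl2l11 (0.0362) among them. Mean levels on GENCODE exon lengths were added after seeing the data. Pmaip1 and Bcl2 had 12 to 73 and 12 to 42 reads per library. Their CV between libraries was 59.4% in CKO and 33.5% in WT for Pmaip1, where counting alone gives 19.2% and 20.9%, and 32.0% in CKO and 47.3% in WT for Bcl2, where counting gives 27.1% and 21.7%.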

Other observations

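Birc5, which encodes the caspase inhibitor and mitotic protein survivin and lay below the filter, was chosen after its values were seen. It had 0.782, 0.629, 0.663 and 1.11 RPKM across libraries CKO1 to CKO4, against 0.0323, 0.128, 0.165 and 0.0675 RPKM across WT1 to WT4, on 1 to 34 recovered reads per library. With no filter on low values its log2 change was 0.70 (limma adjusted p = 0.0066), and every CKO library lay above every WT library. The Bcl2a1 copies below the filter had 0.163 ± 0.172 RPKM in CKO and 0.617 ± 0.299 RPKM in WT for Bcl2a1a, and 0.579 ± 0.502 RPKM in CKO and 1.11 ± 0.539 RPKM in WT for Bcl2a1d (SD, n = 4 each). With no filter neither passed (limma adjusted p = 0.115 for Bcl2a1a and 0.346 for Bcl2a1d). The neutrophil genes summed to 15.9 to 53.1 RPKM in CKO and 41.2 to 88.0 RPKM in WT. CKO4, the CKO library with the highest sum, was also the CKO library with the most Bcl2a1b. The WT libraries did not show this match. WT1, with the highest sum, had 2.26 RPKM of Bcl2a1b, and WT4, with the lowest WT sum, had 3.39 RPKM.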
